A study of Mus musculus with 371 samples.

Results

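Transcripts of 8 integrin genes (Itgal, Itgb2, Itga4, Itgb1, Itgb7, Itgae, Itgav and Itga1) were described in single T cells from B16F10 melanoma, a mouse skin tumour line grown in mice. They were chosen by name, as subunits of the integrins best known on T cells, and are 8 of 23362 genes in the expression table and 8 of its 27 integrin subunit genes. The cells came from tumours of C57BL/6 mice, either wild type (WT) or carrying a knockout (KO) of Il27ra, the receptor chain through which T cells sense the cytokine IL-27. The labels give neither the nature of the KO allele nor the age or sex of the mice, and the number 3 stands beside the genotype in every title. Single cells were sorted as CD8 or CD4 and profiled by Smart-seq2, a plate method that reads whole transcripts of each cell. The treatment protocol in the labels names CD8 cells only, while the titles also name the CD4 sort.

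The 4 groups were KO CD8, WT CD8, KO CD4 and WT CD4. Each has its own animal word in the titles (bird, dog, rabbit and cat, in the same order), and the titles of both CD8 groups end in p1 and those of both CD4 groups in p2. The labels do not say what these words and codes mean, so each group was taken as 1 sorted pool with no replicate. Pool and genotype therefore cannot be told apart, nor can the sort and the p1 or p2 code in any comparison of CD4 with CD8 cells, no test between groups was possible, and spreads over cells describe the cells of 1 pool. Cells with at least 1000 genes at 1 FPKM (FPKM counts fragments per kilobase of transcript, scaled to library size) were kept: 86 of 90 KO CD8, 90 of 94 WT CD8, 89 of 93 KO CD4 and 85 of 94 WT CD4 cells. The median number of genes per kept cell was 1955 in KO CD8, 2148 in WT CD8, 1868 in KO CD4 and 1661 in WT CD4 cells.

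Integrins are surface receptors made of 1 alpha and 1 beta chain, and neither chain reaches the surface of the cell without a partner. Talin and kindlin proteins bind the tail of the beta chain inside the cell and switch the receptor to a form that grips its ligand. T cells use integrins to stop on vessel walls, to hold on to target cells and to stay in tissues, and the partner decides the ligand: Itga4 with Itgb1 binds VCAM-1 and fibronectin, while Itga4 with Itgb7 binds MAdCAM-1 of gut vessels. The values here are transcripts and say nothing of protein at the surface.

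Itgb1 and Itgb7 are the alternative partners of Itga4, and cells with either, both or neither of them were counted. The 250 bases upstream of the RefSeq start of these 3 genes (GRCm38.p6) are therefore shown 5′ to 3′, with motif letters in capitals. They lie at chr2:79255176-79255425 on the plus strand (Itga4), chr8:128685404-128685653 on the plus strand (Itgb1) and chr15:102231936-102232185 on the minus strand (Itgb7). RefSeq promoters matched 5 of the 8 genes.
Itga4: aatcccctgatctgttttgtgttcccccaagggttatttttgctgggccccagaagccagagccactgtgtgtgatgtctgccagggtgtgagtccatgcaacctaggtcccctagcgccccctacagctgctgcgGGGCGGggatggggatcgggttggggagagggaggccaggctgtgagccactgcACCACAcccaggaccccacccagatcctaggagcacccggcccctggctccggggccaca
Itgb1: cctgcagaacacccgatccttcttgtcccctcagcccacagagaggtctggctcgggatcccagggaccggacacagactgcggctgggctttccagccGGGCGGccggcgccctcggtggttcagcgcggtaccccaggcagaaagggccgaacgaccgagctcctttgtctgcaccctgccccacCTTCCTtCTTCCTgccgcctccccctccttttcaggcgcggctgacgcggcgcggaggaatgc
Itgb7: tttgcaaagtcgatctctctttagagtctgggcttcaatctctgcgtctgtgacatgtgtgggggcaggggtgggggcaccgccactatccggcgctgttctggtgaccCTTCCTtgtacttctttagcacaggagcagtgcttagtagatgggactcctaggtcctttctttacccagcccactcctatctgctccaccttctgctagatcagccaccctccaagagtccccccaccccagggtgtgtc
The motifs searched on both strands were TGTGGT of RUNX factors, GGGCGG of the Sp and KLF families and AGGAAG of ETS factors, none of which overlap here. The Itga4 window held 1 RUNX and 1 Sp/KLF motif, the Itgb1 window 1 Sp/KLF and 2 ETS motifs, and the Itgb7 window 1 ETS motif. Of 27025 promoter windows of the same length, 14.2% held the RUNX, 32.9% the Sp/KLF and 29.2% the ETS letters, so the matches only describe these windows. The bases of the Itga4 and Itgb1 windows were 64% and 68% G or C and those of Itgb7 56%, against a median of 52% over all windows.

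Il27ra itself was at 1 FPKM or more in 53.5% of KO CD8 cells (95% Clopper-Pearson interval 42.4% to 64.3%), against 51.1% of WT CD8 cells (40.3% to 61.8%). Of the CD4 cells, 50.6% of KO and 50.6% of WT had it. A value per gene over all its exons cannot show a deleted part, so the KO label could not be checked and is used below as a label. Cd4 was found in 0 of 86 KO CD8 and 0 of 90 WT CD8 cells, which allows up to 3.49% and 3.33%, and in 87.6% of KO CD4 and 87.1% of WT CD4 cells. Cd8a was found in 81.4% of KO CD8 and 83.3% of WT CD8 cells, and in 1.12% of KO CD4 and 2.35% of WT CD4 cells. Cd8b1 was found in 91.9% of KO CD8 and 86.7% of WT CD8 cells, and also in 21.3% of KO CD4 and 24.7% of WT CD4 cells, at medians where found of 2.95 and 2.13 FPKM in the CD4 groups. Cd4, Cd8a and Cd8b1 together matched the sort in 61 of 89 KO CD4, 54 of 85 WT CD4, 84 of 86 KO CD8 and 83 of 90 WT CD8 cells, and Cd3e of the T cell receptor complex was found in 86.0% to 93.3% of cells. Between 5 and 11 cells of a group carried at least 2 markers of another cell type at 10 FPKM or more.

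The members differed in how many cells had them. Itgal and Itgb2, which form LFA-1, the receptor for ICAM-1, were found in most cells of every group. Itga4, Itgb1 and Itgb7 were found in 24.7% to 77.5% of cells. Itgae, Itgav and Itga1 were found in at most 36.5% of cells of any group, although Itgav exceeded Itgb1 in WT CD4 cells.

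Itgal (chr7:127296260-127335138, plus strand; positions are GRCm38 with GENCODE vM21) was at 1 FPKM or more in 74.4% of KO CD8 (63.9% to 83.2%), 80% of WT CD8 (70.2% to 87.7%), 75.3% of KO CD4 (65% to 83.8%) and 68.2% of WT CD4 cells (57.2% to 77.9%). Its mean over all cells was 128.7 FPKM in KO CD8, 125.7 in WT CD8, 131.8 in KO CD4 and 121.4 in WT CD4 cells. It was the most even of the common members across groups. Its partner Itgb2 (chr10:77530252-77565708, plus strand) was found in 68.6% of KO CD8 (57.7% to 78.2%), 81.1% of WT CD8 (71.5% to 88.6%), 82% of KO CD4 (72.5% to 89.4%) and 65.9% of WT CD4 cells (54.8% to 75.8%). Its mean was 265.4 FPKM in KO CD8, 360.3 in WT CD8, 343.9 in KO CD4 and 282.7 in WT CD4 cells, with a highest cell of 1802 FPKM. Itgb2 is also the beta chain of myeloid integrins and was higher in WT CD8 and KO CD4 than in KO CD8 and WT CD4 cells by share and by mean.

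Itga4 (chr2:79255426-79333123, plus strand), the alpha chain shared by the VCAM-1 and MAdCAM-1 receptors, was found in 62.8% of KO CD8 (51.7% to 73%), 62.2% of WT CD8 (51.4% to 72.2%), 46.1% of KO CD4 (35.4% to 57%) and 49.4% of WT CD4 cells (38.4% to 60.5%). Where found, its median was 36.6 FPKM in KO CD8, 38.3 in WT CD8, 34.7 in KO CD4 and 12.5 in WT CD4 cells, lower per kilobase than that of Itgal or of either beta partner. Its values under 10 FPKM made up 12 of 54, 17 of 56, 15 of 41 and 18 of 42 cells with the gene in KO CD8, WT CD8, KO CD4 and WT CD4. Exons of Itga4 overlap those of Cerkl on the minus strand, and the library is not stated to keep strand, so reads of the overlap cannot be told apart.

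Itgb1 (chr8:128685654-128733200, plus strand), the most widely shared beta chain, was found in 51.2% of KO CD8 (40.1% to 62.1%), 46.7% of WT CD8 (36.1% to 57.5%), 41.6% of KO CD4 (31.2% to 52.5%) and 24.7% of WT CD4 cells (16% to 35.3%). Itgb7 (chr15:102215995-102231944, minus strand), found mainly on lymphocytes, was at 1 FPKM or more in 52.3% of KO CD8 (41.3% to 63.2%), 46.7% of WT CD8 (36.1% to 57.5%), 77.5% of KO CD4 (67.4% to 85.7%) and 52.9% of WT CD4 cells (41.8% to 63.9%). KO CD4 cells thus had the highest share for Itgb7. The share of all genes that were highest in KO CD4 cells was not counted. CD4 cells with Itgb7 also had more detected genes than those without it. Their medians were 1984 with and 1585.5 without it in KO, and 1869 with and 1464 without it in WT. The mean of Itgb7 over all cells was 244.9 FPKM in KO CD8, 193.7 in WT CD8, 550.1 in KO CD4 and 379.9 in WT CD4 cells. Its median where found was 520.8 FPKM in KO CD4 and 565.5 in WT CD4 cells. Split by Foxp3, which defines regulatory T cells, that median was 481.8 FPKM in KO and 622.1 in WT CD4 cells with Foxp3, and 533.0 in KO and 445.7 in WT CD4 cells without it. Among cells with at least 2000 genes, Itgb7 was found in 95.2% of 21 KO and 84.2% of 19 WT CD4 cells with Foxp3. Without Foxp3 it was found in 81.3% of 16 KO and 50% of 6 WT CD4 cells. Itgb1 where found had a median of 205.1 FPKM in KO CD8, 122.2 in WT CD8, 139.01 in KO CD4 and 225.03 in WT CD4 cells.

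Itgae (chr11:73090583-73147446, plus strand), the CD103 chain that pairs with Itgb7 to bind E-cadherin, was found in 15.1% of KO CD8 (8.3% to 24.5%), 5.56% of WT CD8 (1.83% to 12.5%), 24.7% of KO CD4 (16.2% to 35%) and 15.3% of WT CD4 cells (8.4% to 24.7%). These were 13, 5, 22 and 13 cells, in the same order. Where found it was not scarce, with a median of 260.2 FPKM in KO CD8, 115.4 in WT CD8, 157.95 in KO CD4 and 261.9 in WT CD4 cells.

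Itgav (chr2:83724397-83806916, plus strand), an alpha chain with several beta partners, was found in 10.5% of KO CD8 (4.9% to 18.9%), 25.6% of WT CD8 (16.9% to 35.8%), 33.7% of KO CD4 (24% to 44.5%) and 36.5% of WT CD4 cells (26.3% to 47.6%), at medians of 20.1, 5.29, 10.9 and 18.5 FPKM where found. Itga1 (chr13:114953096-115101964, minus strand), the CD49a chain of the collagen receptor VLA-1, was found in 8 KO CD8 and 9 WT CD8 cells (9.3% and 10%), at medians of 30.7 and 33.5 FPKM. Among CD4 cells, 2 of 89 KO cells had it, at no more than 1.5 FPKM, and 0 of 85 WT cells did, which allows up to 3.53%. Itga1 was thus close to absent from CD4 cells at this depth. Exons of Itgav overlap those of Gm13684 and exons of Itga1 those of Gm49395, with the same limit on reads.

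**Figure D1:**
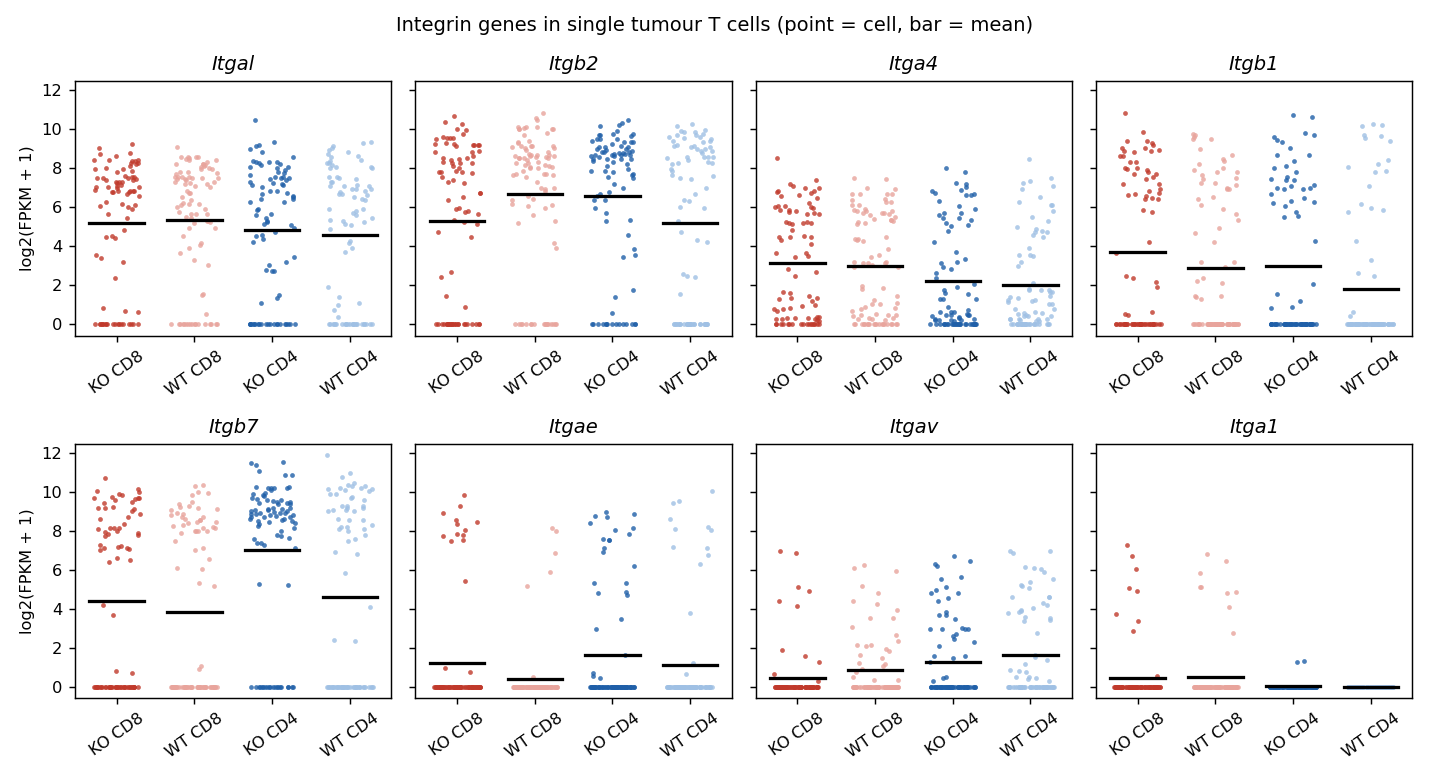
Log2(FPKM + 1) of the 8 genes in every kept cell (points) with the mean over cells (bar), in KO CD8, WT CD8, KO CD4 and WT CD4 cells. Cells are at 0 or well above it for most genes, and the Itgb7 mean is highest in KO CD4 cells, at 7.0 on this scale.

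For the comparison of KO with WT, the value of a gene was the difference of the mean log2(FPKM + 1) over cells, and a gene was measured where 1 of the compared groups had it at 1 FPKM or more in at least 20% of its cells. A difference of at least 1, or at most -1, was counted as past the fold. In the CD4 sort, 7 of the 8 genes were measured, and Itgb7, Itgb2 and Itgb1, the 3 beta chains, had means higher by more than the fold in KO cells, while none was lower by it. Of all 3864 genes measured there, 9.91% were higher and 0.983% lower by the fold. Itgb7 averaged 7.0 ± 3.93 (SD over 89 KO cells) against 4.61 ± 4.60 (SD over 85 WT cells), a difference of 2.39 that only 0.181% of measured genes reached. Itgb2 averaged 6.57 ± 3.53 in KO and 5.19 ± 4.14 in WT cells (difference 1.38), and Itgb1 2.97 ± 3.79 in KO and 1.8 ± 3.37 in WT cells (difference 1.17). The alpha chains differed less: Itgae by 0.51, Itgal by 0.26, Itga4 by 0.22 and Itgav by -0.36. The median difference of the 8 genes was 0.39, against 0.23 for all measured genes.

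The size of these differences in CD4 cells depended on the measure. That of Itgb1 was under the fold in cells weighted to the same spread of detected genes (0.91) and with the median gene set to 0 (0.94). As a log2 ratio of mean FPKM (550 in KO against 380 in WT cells) that of Itgb7 was 0.53, short of the fold, and in the weighted cells it was 1.59. In cells with at least 2000 genes, 37 KO and 25 WT, it was 1.33, while that of Itgb2 was -0.53. Markers of macrophages and monocytes summed to 155.1 FPKM in KO CD4 and 67.9 FPKM in WT CD4 cells (6 and 5 of 6 genes found). Dendritic cell markers summed to 64.9 FPKM in KO CD4 and 14.9 FPKM in WT CD4 cells (5 and 4 of 6), B cell markers to 36.4 and 0 FPKM (4 and 0 of 4) and melanoma cell markers to 22.9 and 69.2 FPKM (5 of 5 in both), in the same order. Tyr of the melanoma list was found in 97.8% of KO and 95.3% of WT CD4 cells, at means of 5.86 and 5.80 FPKM. Xcr1 of the dendritic cell list was found in 24.7% of KO and 21.2% of WT CD4 cells. The other genes of these lists were found in at most 10.6% of the cells of either group. Lyz2, a macrophage marker, averaged 114.2 FPKM in KO and 36.4 FPKM in WT CD4 cells, but was found in 4.49% and 5.88% of them. At least 2 markers at 10 FPKM or more were carried by 3 KO and 4 WT CD4 cells for macrophages and monocytes. These were 2 and 0 cells for dendritic cells, 1 and 0 for B cells and 3 and 3 for melanoma cells. The part of these markers in the differences was not tested beyond leaving cells out: without the cells that carried other types' markers the differences were 2.73 for Itgb7 and 1.79 for Itgb2.

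In the CD8 sort, 6 of the 8 genes were measured, and only Itgb2 was past the fold, with a lower mean in KO cells; 13.3% of the 4686 measured genes were lower and 0.555% higher by the fold. Itgb2 averaged 5.30 ± 3.95 in 86 KO cells and 6.65 ± 3.49 in 90 WT cells, a difference of -1.35 that 4.76% of measured genes matched or went below. Its call did not hold after weighting to equal detected genes (-0.86) or without cells that carried other types' markers (-0.95). Itgb1 averaged 3.71 ± 3.91 in KO and 2.87 ± 3.57 in WT cells, a difference of 0.84 that 1.02% of measured genes reached. Itgb7 differed by 0.56, Itga4 by 0.15, Itgal by -0.14 and Itgav by -0.39, and Itgae, below the filter, by 0.86. The median of all measured genes was -0.40, with fewer genes found per KO cell, and the median of the 8 integrin genes was 0.06. Macrophage and monocyte markers summed to 13.6 FPKM in KO CD8 (2 of 6 genes found) and 21.6 FPKM in WT CD8 cells (6 of 6). Melanoma cell markers summed to 103.4 FPKM in KO CD8 and 25.8 FPKM in WT CD8 cells (5 of 5 in both), B cell markers to 16.3 and 31.6 FPKM (2 and 4 of 4), dendritic cell markers to 14.6 and 9.79 FPKM (3 and 4 of 6) and NK cell markers to 39.3 and 30.9 FPKM (2 and 3 of 4), in the same order. At least 2 NK cell markers at 10 FPKM or more were carried by 0 KO CD8 and 5 WT CD8 cells. For melanoma cell markers these were 5 KO CD8 and 4 WT CD8 cells, and for macrophage and monocyte markers 0 and 1. Apart from the value without such cells, the part of these markers in the differences was not tested.

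**Figure D2:**
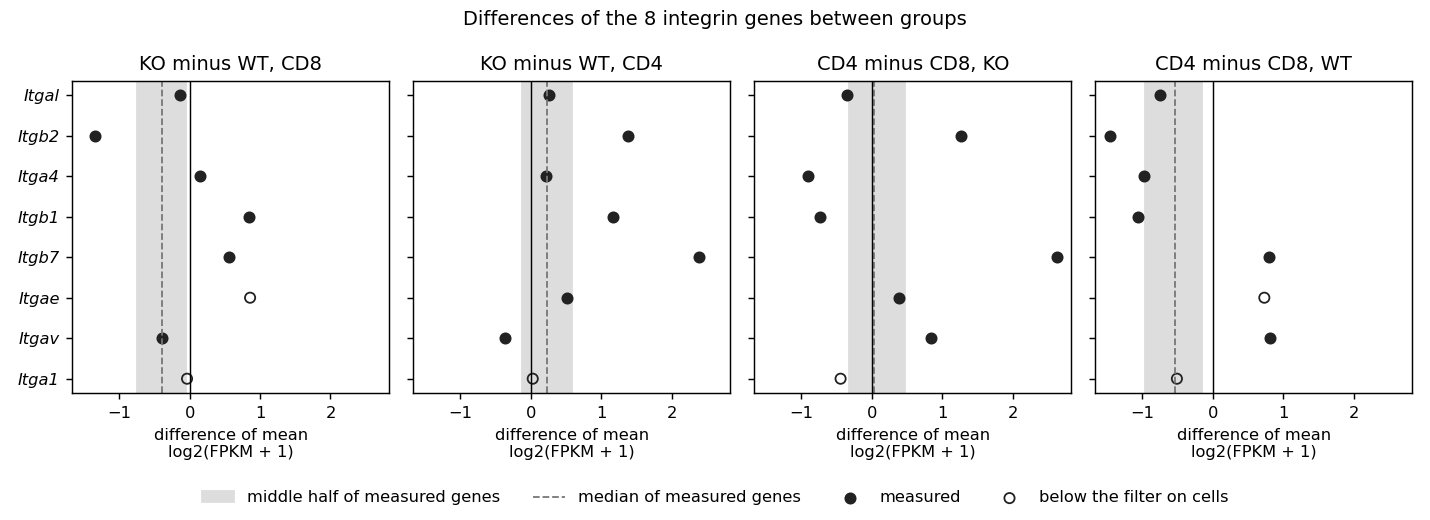
Difference of mean log2(FPKM + 1) for the 8 genes in the 4 comparisons, with the median (dashed line) and the interquartile range (grey band) of all measured genes. Filled circles passed the filter on cells, and Itgb7 lies farthest right in the comparisons of KO with WT CD4 cells (2.39) and of KO CD4 with KO CD8 cells (2.63).

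Between sorts of the same genotype, Itgb7 and Itgav had higher means in CD4 cells, and Itga4, Itgb1 and Itgal lower ones, in KO and in WT alike. Among KO cells, Itgb7 (2.63) and Itgb2 (1.27) were higher in CD4 cells by the fold and none of the 7 measured members was lower by it, where 8.24% of 3956 genes were higher and 4.55% lower. Itga4 differed by -0.90, Itgb1 by -0.74, Itgav by 0.84, Itgae by 0.39 and Itgal by -0.36. Among WT cells, Itgb2 (-1.46) and Itgb1 (-1.06) were lower in CD4 cells by the fold and none of the 6 measured members was higher by it, where 23.4% of 4729 genes were lower and 1.54% higher. Itga4 differed by -0.97, Itgal by -0.75, Itgav by 0.81 and Itgb7 by 0.80 there. The median of the 8 genes was 0.02 in KO and -0.63 in WT, against 0.03 and -0.53 for all measured genes. WT CD4 cells had the fewest detected genes. Weighted to equal detected genes, the Itgb2 difference in WT was -0.10 and that of Itgb1 -0.50. The CD4 groups also serve in the comparisons of KO with WT, so the 4 sets of differences share cells.

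Partners within cells were counted as cells with both chains, either chain alone or neither, beside the number that the product of the 2 single shares gives. LFA-1 was the most common pair. Itgal and Itgb2 were found together in 46 of 86 KO CD8, 62 of 90 WT CD8, 57 of 89 KO CD4 and 42 of 85 WT CD4 cells, against products of 43.9, 58.4, 54.96 and 38.2 cells. The pair was thus seen slightly more often than the product in all 4 groups, with the product inside the interval of each share. The beta chain had more transcript per kilobase than the alpha chain in most of these cells, with a median ratio of 2.04 in KO CD8, 2.71 in WT CD8, 3.51 in KO CD4 and 2.87 in WT CD4 cells.

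Itga4 and Itgb1 were found together in 27 KO CD8, 30 WT CD8, 20 KO CD4 and 12 WT CD4 cells, against products of 27.6, 26.1, 17.04 and 10.4. Itga4 and Itgb7 were found together in 25 KO CD8, 24 WT CD8, 30 KO CD4 and 21 WT CD4 cells, against products of 28.3, 26.1, 31.8 and 22.2. With Itgb7 the count lay just below the product in all 4 groups, and the product was inside the interval of each share. Where both were found, Itgb7 exceeded Itga4 at a median ratio of 5.68 in KO CD8, 8.08 in WT CD8, 17.4 in KO CD4 and 27.2 in WT CD4 cells.

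Cells with Itga4 were also sorted by which partner was found with it. Of 41 such KO CD4 cells, 5 had Itgb1 alone, 15 Itgb7 alone, 15 both and 6 neither. Of 42 WT CD4 cells, 5 had Itgb1 alone, 14 Itgb7 alone, 7 both and 16 neither. Itgb7 was thus found in more of these cells than Itgb1 in the CD4 sort. Of 54 KO CD8 cells, 14 had Itgb1 alone, 12 Itgb7 alone, 13 both and 15 neither, and of 56 WT CD8 cells, 18 had Itgb1 alone, 12 Itgb7 alone, 12 both and 14 neither. Cells with Itgb1 as the only partner found were 12.2% of KO CD4 (4.08% to 26.2%) and 11.9% of WT CD4 (3.98% to 25.6%), against 25.9% of KO CD8 (15% to 39.7%) and 32.1% of WT CD8 cells (20.3% to 46%), with overlapping intervals. Cells without either partner were fewer in KO CD4, at 14.6% (5.57% to 29.2%), than in WT CD4, at 38.1% (23.6% to 54.4%), with overlapping intervals. Cells without Itga4 showed the same contrast, with neither chain in 10.4% of 48 KO CD4 and 37.2% of 43 WT CD4 cells. Itgb7 alone was found in 54.2% and 41.9% of them, so these CD4 counts are not particular to cells with Itga4. In the CD8 sort, Itgb1 alone was found in 9.38% of 32 KO and 11.8% of 34 WT cells without Itga4.

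Itgb7 is the only beta partner known for Itgae. In KO CD4, 21 of 22 Itgae cells had Itgb7 (95.5%, 77.2% to 99.9%), against 71.6% of the cells without Itgae (59.3% to 82%). In WT CD4, 11 of 13 had it (84.6%, 54.6% to 98.1%), against 47.2% of the cells without Itgae (35.3% to 59.3%). Among cells with Foxp3, 18 of 19 KO CD4 cells with Itgae and 15 of 16 without it had Itgb7, so the count with both, 18, lay at the product of 17.9. In WT CD4 cells with Foxp3 both were found in 11 cells against a product of 8.20, and in cells without Foxp3 in 3 KO cells against 2.0 and in 0 WT cells. In the CD8 sort, 8 of 13 KO and 5 of 5 WT cells with Itgae had Itgb7. The products were 6.80 and 2.33 cells, and 50.7% of KO and 43.5% of WT CD8 cells without Itgae had Itgb7. Itga1 shared its cell with Itgb1, its partner, in 6 of 8 KO CD8 and 6 of 9 WT CD8 cells. Here the products were 4.09 and 4.20 cells, and 48.7% of KO and 44.4% of WT CD8 cells without Itga1 had Itgb1. In the CD8 sort each product was inside the interval of its share.

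Itgav was set beside Itgb1, one of its partners. They were found together in 4 KO CD8, 13 WT CD8, 8 KO CD4 and 4 WT CD4 cells, against products of 4.60, 10.7, 12.5 and 7.66. In CD4 cells the 2 were thus found together less often than the product gives, with the product inside the interval of each share. Within cells split by Foxp3 the counts lay near the product: 5 against 5.94 with Foxp3 and 3 against 2.15 without it in KO CD4, and 3 against 3.96 with it and 1 against 1.79 without it in WT CD4.

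**Figure D3:**
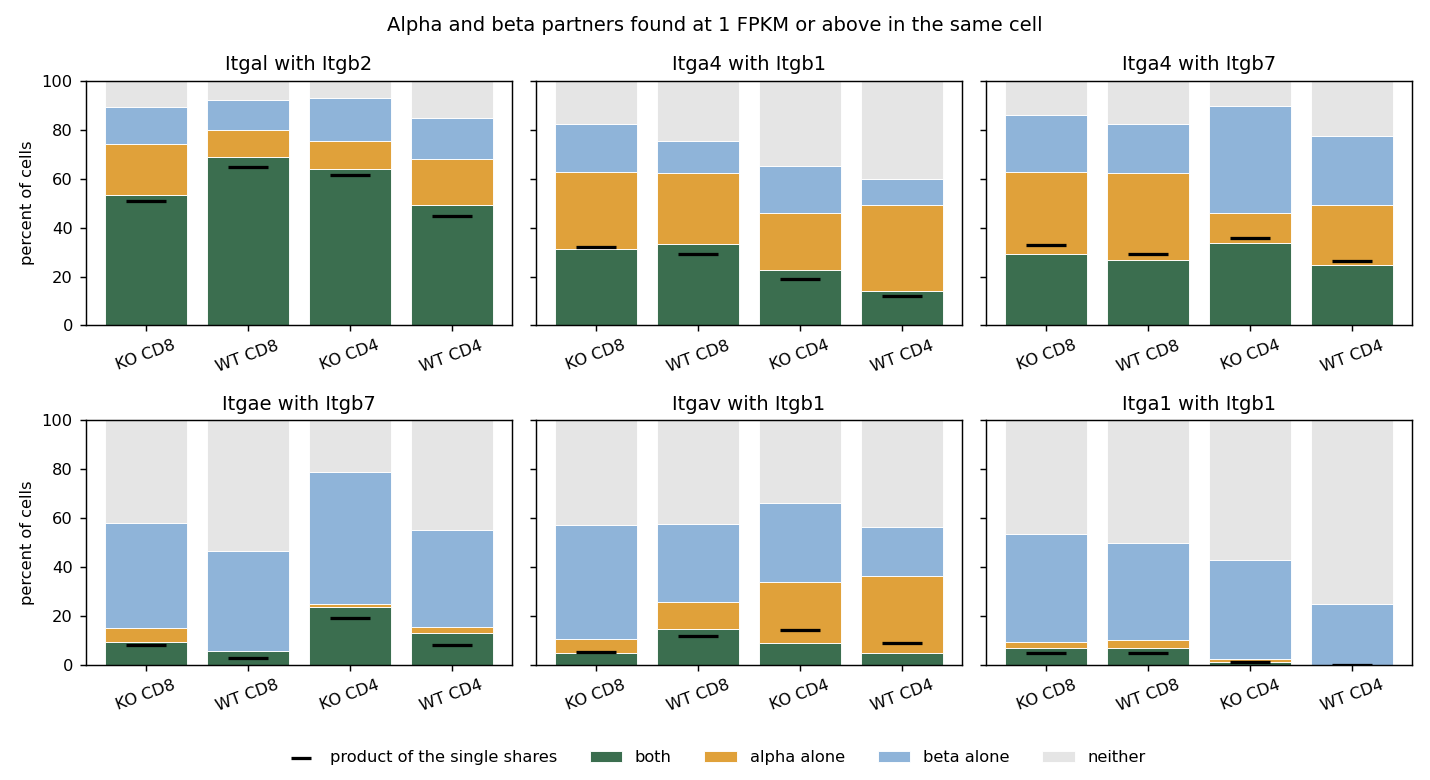
Percent of cells with both chains, the alpha chain alone, the beta chain alone or neither at 1 FPKM or more, for 6 pairs in the 4 groups; the black line is the product of the single shares. Itgae (yellow and green) is nearly all within the Itgb7 cells in both CD4 groups, with 1 KO CD4 cell and 2 WT CD4 cells having it alone.

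Counting all members, a cell had a mean of 3.44 ± 1.32 of the 8 genes in KO CD8, 3.58 ± 1.27 in WT CD8, 3.83 ± 1.38 in KO CD4 and 3.13 ± 1.45 in WT CD4 (SD over cells). All 3 beta chains were found together in 21 KO CD8 cells (24.4%, 15.8% to 34.9%) and 16 WT CD8 cells (17.8%, 10.5% to 27.3%). They were found together in 26 KO CD4 cells (29.2%, 20.1% to 39.8%) and 11 WT CD4 cells (12.9%, 6.64% to 22%). No beta chain was found in 9 KO CD8, 5 WT CD8, 0 KO CD4 and 17 WT CD4 cells. WT CD4 cells, with the fewest detected genes, thus also had the most cells without a beta chain.

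Foxp3 divided the CD4 cells by their integrins. Cells with Foxp3 at 1 FPKM or more were 35 of 89 KO CD4 and 46 of 85 WT CD4 cells, and they had more genes per cell (median 2152 with and 1746.5 without Foxp3 in KO, 1883.5 with and 1547 without it in WT). A cell without the transcript may still hold the protein. In both genotypes Itgae, Itgav and Itgb7 had means higher by the fold in cells with Foxp3, and Itgb1 a mean lower by it.

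Itgae was found in 54.3% of KO cells with Foxp3 (36.6% to 71.2%), against 5.56% of those without it (1.16% to 15.4%). In WT it was found in 28.3% of cells with Foxp3 (16% to 43.5%) and in 0 of 39 cells without it. Every WT CD4 cell with Itgae therefore had Foxp3, and 19 of 22 KO CD4 cells did. Itgav followed the same division, in 74.3% of cells with and 7.41% without Foxp3 in KO, and in 56.5% with and 12.8% without it in WT. Cells with Foxp3 had more detected genes, and the share of all genes divided in this way was not counted.

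Itgb7 was found in 94.3% of KO cells with Foxp3 (80.8% to 99.3%) and 66.7% of those without it (52.5% to 78.9%). In WT it was found in 63% with (47.5% to 76.8%) and 41% without Foxp3 (25.6% to 57.9%). Itgb1 ran the other way, in 22.9% with (10.4% to 40.1%) and 53.7% without Foxp3 (39.6% to 67.4%) in KO, and in 15.2% with (6.34% to 28.9%) and 35.9% without it (21.2% to 52.8%) in WT. The shares of the 2 partners of Itga4 thus moved in opposite directions with Foxp3. Without Foxp3, Itgb7 was still found in more cells than Itgb1 in both genotypes. The intervals of cells with and without Foxp3 overlapped for Itgb7 in WT and for Itgb1 in both genotypes. The share of all genes divided as Itgb7 was in KO was not counted. Itga4 itself was found in 40% with and 50% without Foxp3 in KO, and in 52.2% with and 46.2% without it in WT.

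As differences of means, cells with Foxp3 minus cells without it, KO CD4 gave 3.38 for Itgae, 2.71 for Itgav, 2.68 for Itgb7, -1.09 for Itga4 and -2.73 for Itgb1. Of 4849 measured genes 30% were higher by the fold, with 3 members, and 2.35% lower, with 2 members; the median was 0.60 over those genes and 0.82 over the 8. WT CD4 gave 2.06 for Itgae, 2.17 for Itgav, 2.34 for Itgb7, -0.25 for Itga4 and -2.16 for Itgb1. There 23.9% of 3850 genes were higher, with 3 members, and 4.81% lower, with 1 member, and the median was 0.42 over those genes and 0.03 over the 8. In cells with at least 2000 genes, an alternative added after the data were seen (21 with and 16 without Foxp3 in KO, 19 with and 6 without it in WT) Itgae, Itgav and Itgb7 remained higher by the fold and Itgb1 lower by it in both genotypes.

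The KO against WT difference of Itgb7 was 2.94 among cells with Foxp3 and 2.60 among cells without it. Of all measured genes, 21.5% were higher in KO by the fold among cells with Foxp3, at a median of 0.42. Among cells without it 13.5% were, at a median of 0.21. In cells with at least 2000 genes, Itgb7 averaged 8.86 in 21 KO and 7.67 in 19 WT cells with Foxp3. Without Foxp3 it averaged 7.55 in 16 KO and 4.72 in 6 WT cells. Itgae differed by 1.62 among cells with Foxp3, and Itgb1 by 0.50 there and by 1.08 among cells without it. A smaller share of KO than of WT CD4 cells had Foxp3 (39.3% against 54.1%).

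**Figure D4:**
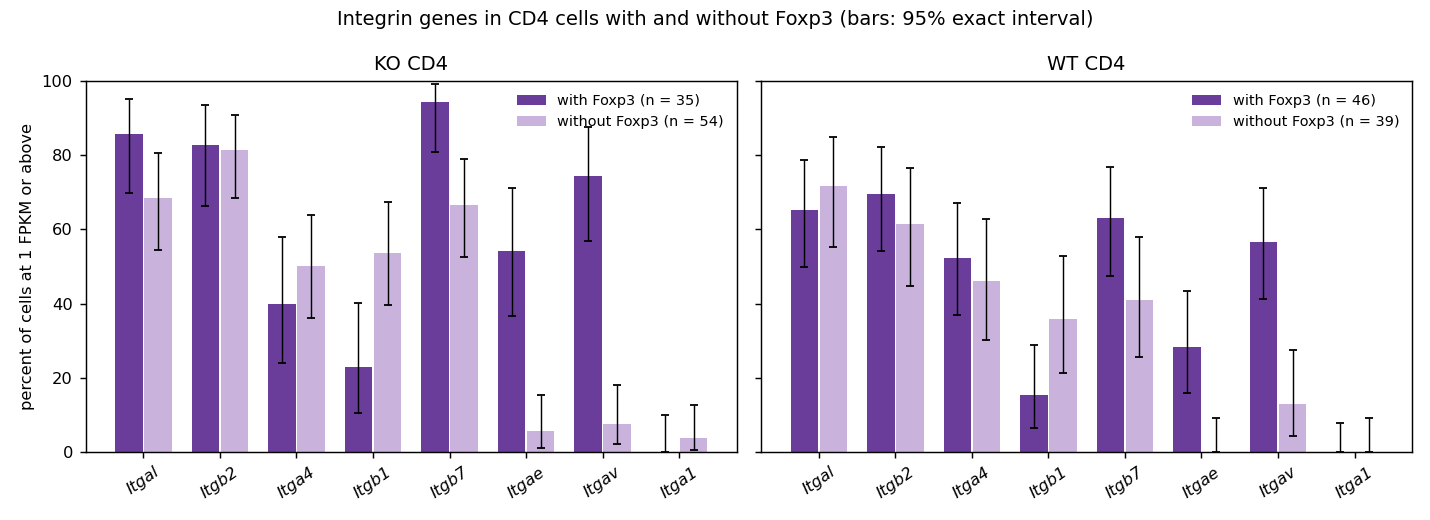
Percent of CD4 cells at 1 FPKM or more for each of the 8 genes, in cells with Foxp3 (dark) and without it (light), KO left and WT right, with exact 95% intervals. In both panels Itgae, Itgav and Itgb7 are higher in the dark bars and Itgb1 in the light bars.

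CD8 cells were divided by the checkpoint receptors Pdcd1, Havcr2, Lag3 and Tigit, which mark repeatedly stimulated T cells. Cells with at least 2 of the 4 were 23 of 86 KO and 39 of 90 WT cells. Their median number of genes was 1984 with at least 2 receptors and 1950 with fewer in KO, and 3024 with at least 2 and 1993 with fewer in WT, so in WT the division was also one of detected genes.

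Itgal was found more often in the receptor-rich cells of both genotypes, in 87.0% against 69.8% of the other cells in KO and 92.3% against 70.6% in WT, with overlapping intervals. Itgav was found in 21.7% of receptor-rich and 6.35% of other KO cells, and in 43.6% (27.8% to 60.4%) of receptor-rich and 11.8% (4.44% to 23.9%) of other WT cells. Itgb1 was found in 73.9% of receptor-rich KO cells (51.6% to 89.8%) and 42.9% of the other KO cells (30.5% to 56%), and in 53.8% and 41.2% of the WT cells so divided. Itgb7 differed in direction between the genotypes. It was found in 65.2% of receptor-rich KO cells (42.7% to 83.6%) and 47.6% of the other KO cells (34.9% to 60.6%), but in 25.6% of receptor-rich WT cells (13% to 42.1%) and 62.7% of the other WT cells (48.1% to 75.9%). The intervals overlapped in KO, and the share of all genes divided as Itgb7 was in WT was not counted. Itgae was found in 30.4% of receptor-rich and 9.52% of other KO cells, and in 0 of 39 receptor-rich and 9.8% of other WT cells.

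As differences of means, receptor-rich minus other cells, Itgb7 gave 1.64 in KO and -3.09 in WT. Itgal gave 1.75 in KO and 2.18 in WT, Itgb1 2.50 and 0.24, Itgb2 1.46 and 0.92, Itgae 1.73 and -0.66, and Itgav 0.74 and 1.25, in the same order. In KO, 14.5% of 4191 genes were higher by the fold, with 5 members, and 6.2% lower, with none. In WT, 42.6% of 5948 genes were higher, with 2 members, and 1.23% lower, with Itgb7 as the only member. Medians were 0.17 over those genes and 1.55 over the 8 in KO, and 0.86 and 0.41 in WT. In cells with at least 2000 genes, also added after the data were seen (11 receptor-rich and 27 other KO cells, 34 and 25 WT cells) the Itgb7 difference was 0.89 in KO and -2.29 in WT.

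**Figure D5:**
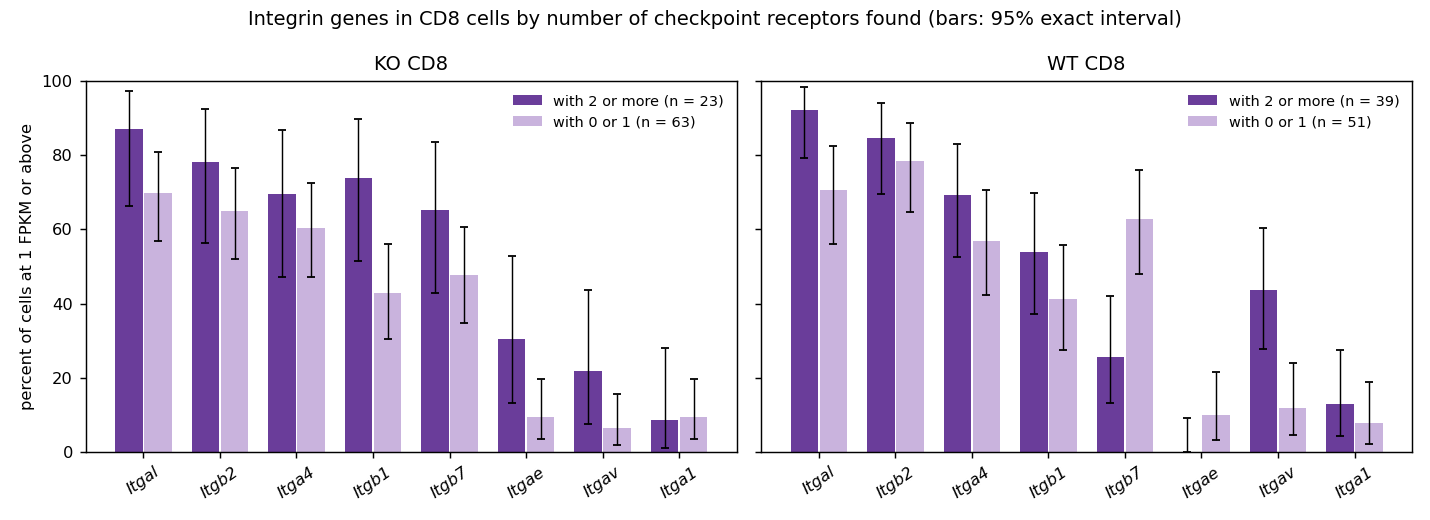
Percent of CD8 cells at 1 FPKM or more for each of the 8 genes, in cells with at least 2 checkpoint receptor transcripts (dark) and in the other cells (light), KO left and WT right, with exact 95% intervals. Itgb7 is higher in the dark bar in KO (65.2% dark, 47.6% light) and lower in it in WT (25.6% dark, 62.7% light).

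Genes that work with integrins were described from 5 lists. Of 20 activation and adaptor genes, which include talin and kindlin, 14 were measured in KO against WT CD4 cells, at a median difference of 0.46, where all measured genes had a median of 0.23 and 9.91% were higher by the fold. Only Rassf5, which links Rap1 to LFA-1, was past the fold there (1.04), and Tln1 (talin) differed by 0.80 and Fermt3 (the kindlin of blood cells) by 0.55. In CD8 cells 16 were measured, at a median of -0.09, and none was past the fold, where all genes had a median of -0.40 and 13.3% were lower and 0.555% higher by the fold.

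Of 15 genes of signalling downstream of integrins, 10 were measured in each sort. In CD4 cells Zyx (1.92), Arhgap15 (1.27) and Parvg (1.08) were higher in KO by the fold, at a list median of 0.47 against 0.23 for all genes. Zyx, a protein of adhesion sites, was found in 60.7% of KO CD4 and 34.1% of WT CD4 cells. In CD8 cells the list median was -0.44, near the -0.40 of all genes, and Parvg, a parvin of blood cells that binds integrin-linked kinase, was lower by the fold (-1.25), as were 13.3% of all genes. Among 2 measured ligand genes of 11, none was past the fold in either sort.

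TGF-beta is known to induce Itgae, and Runx3 to support it in CD8 T cells. Of 11 genes of that axis, 7 were measured in CD4 cells, where Tgfbr2, the type II receptor, was higher in KO by the fold (1.63; in 61.8% of KO and 37.6% of WT cells), at a list median of 0.37. In CD8 cells 6 were measured, and Smad3, which carries the signal to the nucleus, was higher in KO by the fold (1.04; in 23.3% of KO and 7.78% of WT cells), at a median of 0.14. Runx3 differed by 0.52 in CD4 and -0.44 in CD8 cells. Of 11 homing and retention genes, 9 were measured in each sort. In CD4 cells Cd69 (2.55), Rgs1 (2.31) and Cxcr6 (1.62), genes of tissue-resident T cells, were higher in KO by the fold, at a median of 0.76. In CD8 cells none was past the fold, at a median of 0.15.

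Between sorts, Lck was lower in CD4 cells by the fold in KO (-1.34) and WT (-2.38), as was the lymph node homing receptor Ccr7 (-2.36 in KO and -2.04 in WT). Runx3, a factor of the CD8 lineage, differed by -0.87 in KO and by -1.82 in WT. In WT, 5 of 10 measured signalling genes were lower in CD4 cells by the fold, led by Zyx (-3.44), at a list median of -1.09, and 5 of 9 homing genes, led by Cxcr6 (-2.37), at -1.19; of all 4729 genes measured there 23.4% were lower by the fold, at a median of -0.53. In KO, Fyb (1.15) and Rap1b (1.04), which act upstream of integrin activation, were higher in CD4 cells by the fold. Skap1 (-1.24), the partner of Fyb, was lower by it. The homing and retention genes Rgs1 (2.80) and Cd69 (1.91) and the ligand gene Icam1 (1.13) were also higher in CD4 cells in KO. In WT, Cd69 was lower in them (-1.23). Of 3956 genes measured in KO, 8.24% were higher in CD4 cells and 4.55% lower by the fold.

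Genes whose pattern over cells was most like that of a member were ranked by the correlation of log2(FPKM + 1) given the number of detected genes, averaged over the 4 groups (86, 90, 89 and 85 cells), among 2370 genes (2371 for Itgae and Itgav). All values were low. The nearest was Capg for Itgav, at 0.31 (0.56 in WT CD4), followed by Glrx at 0.29 and Gzmb at 0.28. Capg and Ctla4 were nearest to Itgae, both at 0.25 with values near 0 in WT CD8, where 5 cells had Itgae. Ms4a4b was nearest to Itgb1 (0.30), Pycard to Itgb7 (0.27), Actb and Lck to Itgb2 (0.27 and 0.26), Gtf2i to Itga4 (0.25) and Sh3bgrl3 to Itgal (0.25). Itga1, at 0 in all WT CD4 cells, was not ranked. Among the members, Itgae and Itgav correlated at 0.41 in KO CD4, 0.30 in WT CD4, 0.27 in KO CD8 and -0.07 in WT CD8 cells. Itgb1 and Itgav correlated at -0.26 in KO CD4, -0.33 in WT CD4, -0.09 in KO CD8 and -0.02 in WT CD8 cells. The CD4 values were taken over cells with and without Foxp3 together. Cells of a group share their pool, and with sparse values such correlations are descriptions only.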

How the data were processed

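The values are gene-level FPKM that the authors deposited for single cells, made with Bowtie and RSEM on mm10, per the submitters' processing notes; TMM normalization between cells is per the labels' descriptions. Tool versions are not given in the sources used here, and the number of reads per cell was not used here. The table held 375 columns, of which 371 were single cells, and 4 further columns, named as populations, were not used. Of 23366 gene entries, 4 with repeated symbols were left out. The filter of at least 1000 genes at 1 FPKM kept 350 of 371 cells. Cells were checked for duplicates, and the closest pair correlated at 0.687.

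Group values were means of log2(FPKM + 1), with a pseudocount of 1. This scale understates differences of low genes. A gene was measured where 1 of the compared groups had it at 1 FPKM or more in at least 20% of its cells. Each group was taken as 1 pool, so no test was run, and 95% Clopper-Pearson intervals cover counting error over cells only. The scripts (Python 3.11.15, pandas 2.3.3, scipy 1.17.1) were tested on simulated data. Alternatives changed the pseudocount, the filters on genes and cells, the weighting of cells by detected genes, the scale, the centre, the measure of level, and the cells kept by markers, sort or Foxp3.

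Named genes were the 8 members, up to 4 genes a list past the fold (Tln1, Fermt3 and Runx3 were added after their values were seen), and the nearest genes by correlation. The members and lists were chosen with earlier results of these data known.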

Additional observations from a re-analysis of the deposited data

Results flagged for a closer look

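The beta chain Itgb2 went in opposite directions between KO and WT in the 2 sorts. Its difference of mean log2(FPKM + 1) was -1.35 in CD8 cells and 1.38 in CD4 cells. In cells with at least 2000 genes it was negative in both sorts, at -0.999 in CD8 and -0.53 in CD4 cells. The difference between the sorts was not tested, since each group was taken as 1 pool.

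Itgb7 went in opposite directions between CD8 cells with at least 2 checkpoint receptor transcripts and the other CD8 cells. Its difference of means was 1.64 in KO CD8 and -3.09 in WT CD8 cells. The difference between the genotypes was not tested. Receptor-rich cells had a median of 1984 genes in KO and 3024 in WT.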

How the results depend on the processing

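Each comparison of the 8 genes was repeated under 12 to 14 alternatives, 2 of which change only which genes are counted as measured. Under the 12 others run for Itgb7 in KO against WT CD4 cells, its difference was 0.53 to 3.21 and past the fold in 11, all but the ratio of mean FPKM. In KO against WT CD8 cells, the number of members higher by the fold (0 as reported) was 2 with a pseudocount of 0.1 and with centring on the median gene, and 1 in cells with at least 2000 genes, with weighted cells, with FPKM rescaled per cell and as a ratio of mean FPKM. The number lower (1) was 0 with a pseudocount of 10, in cells with 2000 genes, weighted, centred, as a ratio and without other types' markers. In KO against WT CD4 cells, the number higher (3) was 1 with a pseudocount of 10, 0 as a ratio, 2 in cells with 2000 genes, weighted and centred, and 4 in cells with Foxp3 alone. For CD4 against CD8 in KO, the number higher (2) was 1 with a pseudocount of 10 and as a ratio and 3 with a pseudocount of 0.1, in cells with 2000 genes and without other types' markers, and the number lower (0) was 2 with a pseudocount of 0.1 and 1 in cells with 2000 genes, rescaled, as a ratio and without other types' markers. For CD4 against CD8 in WT, the number higher (0) was 2 with a pseudocount of 0.1, weighted and as a ratio, 3 in cells with 2000 genes and centred, and 1 rescaled. The number lower (2) was 4 with a pseudocount of 0.1, 0 with a pseudocount of 10 and centred, 1 weighted, as a ratio and in cells fitting the sort, and 3 without other types' markers. The median of the 8 there was -0.00513 as a ratio.

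Among differences past the fold, signs turned for Itgb2 in cells with 2000 genes and for Itgb1 as a ratio. Itgb2 went to -0.53 in KO against WT CD4 cells and to 0.35 in CD4 against CD8 WT cells, and Itgb1 to 0.040 in the latter. Smaller differences turned as well. Itgal in KO against WT CD8 cells kept its sign in 7 of 12 alternatives, and Itga4 in KO against WT CD4 cells in 11 of 14. The causes were not tested. The median gene shifted with the scaling, so the split of calls moved: with weighted cells 1.45% were higher and 4.25% lower in KO against WT CD8, 5.62% and 1.81% in KO against WT CD4, and 6.03% and 5.90% in CD4 against CD8 WT cells. With centring they were 2.54% and 3.99%, 5.62% and 1.92%, and 4.46% and 8.08% in the same order. Shares of cells stayed within their intervals in 35 of 56 cases in cells with 2000 genes and in 43 to 56 of 56 under the other alternatives. Few cells had Itga1, Itgae or Itgav, and 1 FPKM was the lowest value counted as found. No paired analysis was possible because each group was taken as 1 pool.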

Other observations

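Of the other integrin subunit genes, 18 were looked at, and Itgb3 was the only one that reached the filter in any comparison. Itgb3, a beta partner of Itgav, was found in 14 KO CD8 cells (16.3%), 7 WT CD8 cells (7.78%), 41 KO CD4 cells (46.1%) and 23 WT CD4 cells (27.1%). Its difference of mean log2(FPKM + 1) was 1.01 for KO against WT CD4 cells, 1.53 for CD4 against CD8 cells in KO and 0.97 in WT. Among KO CD4 cells it was found in 48.6% with Foxp3 and 44.4% without it, and among WT CD4 cells in 19.6% with and 35.9% without it. Itga8, Itga9, Itga10, Itgb4 and Itgb6 were at 1 FPKM or more in 0 cells of every group, which allows up to 3.53% in the smallest group.

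Itgb8, which pairs with Itgav to activate latent TGF-beta, was found in 1 KO CD8, 1 WT CD8, 6 KO CD4 and 9 WT CD4 cells, and all 6 KO and all 9 WT CD4 cells had Foxp3. Itgav and Itgb8 were found together in 5 KO CD4 and 6 WT CD4 cells. Within cells with Foxp3 the products of the single shares were 4.46 and 5.09. Itgav and Itgb3 were found together in 14 KO CD4 and 6 WT CD4 cells, against products of 13.8 and 8.39 over all cells of the group. These pairs were chosen after the values were seen. Lrrc32, which holds latent TGF-beta on regulatory T cells, was higher in CD4 than in CD8 cells by the fold in WT (1.65).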
